A study of Rattus norvegicus with 40 samples.

Results

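The genes described here encode the proteins of the cytosolic ribosome. They were taken by name: array rows whose platform gene symbol is Rpl or Rps followed by a number, with Rplp0 to Rplp2, and without the Rps6k kinases and pseudogenes. The rule found 29 of the 16592 genes with a symbol, 19 of the large subunit (Rpl3, Rpl3l, Rpl4, Rpl5, Rpl7, Rpl10, Rpl10a, Rpl10l, Rpl11, Rpl14, Rpl15, Rpl18, Rpl23, Rpl23a, Rpl28, Rpl30, Rpl35, Rpl41 and Rplp0) and 10 of the small subunit (Rps2, Rps3, Rps3a, Rps4x, Rps6, Rps9, Rps15, Rps16, Rps24 and Rps27). Each gene was read by 1 probe set, and the other ribosomal proteins were not analysed here. The cells were INS-1E, a rat insulinoma line that makes insulin and is used as a model of the pancreatic beta cell; as a tumour-derived line it grows in culture, unlike most adult beta cells. Control cells were kept in medium alone (15 arrays), and exposed cells (25 arrays) received 2 recombinant cytokines, human IL-1 (10 units/ml) and mouse IFN-γ (100 units/ml). The work was done on 2 occasions, which the labels do not tie to a replicate number. RNA was taken at 0, 1, 2, 4, 6, 8, 10, 12, 24, 36, 48, 60 and 72 h and hybridised to Affymetrix Rat ST arrays. Control cells had 2 arrays at 0 and 1 h and 1 array at each of 11 later times. Cytokine-exposed cells had 1 array at 10 h and 2 at each other time. The treatment label of the exposed samples has IFN-beta with IFN-γ where the protocol and the series title have IL-1 with IFN-γ, and the extraction text mentions islets although the samples are labelled as a cell line.

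Ribosomal proteins assemble with ribosomal RNA in the nucleolus, and growing cells keep the amounts of the individual proteins in balance. Their mRNAs are abundant and stable. Most begin with a C followed by an uninterrupted run of pyrimidines, the 5′ terminal oligopyrimidine or TOP motif, through which the kinase mTOR and the RNA-binding protein LARP1 set how well they are translated. An array measures the amount of these mRNAs, not their translation. In beta cells, IL-1 with IFN-γ is known to induce nitric oxide synthase and stress of the endoplasmic reticulum, both of which bear on protein synthesis.

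RefSeq transcription starts in the rat assembly GRCr8 were searched for the motif that the family is known for, and 9 members had it at the annotated start. A start-site sequence was found for 23 of the 29 members. Each line below gives 10 bases before the annotated start and 20 bases from it, 5′ to 3′ on the coding strand, with the unbroken pyrimidine run that begins with C at the start in capitals. The first 6 are members that hold the motif and that are described below or carry its longest runs, and the last 4, the core proteins Rpl3 and Rpl11 and the tissue-restricted copies Rpl10l and Rpl3l, are among the 14 that do not hold it at the annotated start.
Rplp0: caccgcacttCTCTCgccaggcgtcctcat
Rps15: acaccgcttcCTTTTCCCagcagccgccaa
Rpl10a: cttctgccttCTTTTCCggttcccgcagcc
Rps27: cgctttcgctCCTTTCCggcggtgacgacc
Rpl10: gtgggagcgtCTCTTTTCCTCTggcgcggt
Rpl28: cccctagtgtCTTTCTTTCCgtctccggcc
Rpl3: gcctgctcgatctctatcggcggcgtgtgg
Rpl11: cttgaagcttgtttggtgctggggagcatc
Rpl10l: tctccattttgctgctggcggtgagcacgc
Rpl3l: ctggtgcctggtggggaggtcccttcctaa

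These windows lie at chr12:46718371-46718400 on the minus strand for Rplp0, chr7:10068096-10068125 on the minus strand for Rps15, chr20:6390523-6390552 on the plus strand for Rpl10a and chr2:177964587-177964616 on the minus strand for Rps27. Those of Rpl10 and Rpl28 lie at chrX:157205840-157205869 on the plus strand and chr1:78083513-78083542 on the minus strand, and those of Rpl10l and Rpl3l at chr6:90281963-90281992 on the minus strand and chr10:14258436-14258465 on the plus strand. Those of Rpl3 and Rpl11 lie at chr7:113507971-113508000 and chr5:153560783-153560812, both on the minus strand. Each spans the annotated first base of its transcript. A start at C followed by at least 4 pyrimidines (C or T) was present in 9 of the 23 members (39.1%), against 311 of the 13544 array genes with a start-site sequence (2.30%). Such a run began within 10 bases of the annotated start in 16 of the 23 members (69.6%) and in 27.5% of the array genes. At the same annotated base read on the other strand, 0 of the 23 members and 3.51% of the array genes had it. A match describes the letters at an annotated start only; a start annotated a few bases away from the real one would miss it.

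Signals of most members lay near the top of each array. For 22 members the mean rank was at or above a percentile of 93.8 among all named probe sets, and the mean percentiles of Rpl15, Rpl28 and Rpl11 lay between 70.2 and 75.7. The probe sets of Rpl23a, Rps27, Rpl10l and Rpl3l lay below the array median, at mean percentiles of 42.8, 42.6, 37.0 and 28.2. Signals depend on the probes as well as on the mRNA, so they do not order the genes by abundance. Rpl10l and Rpl3l are known as copies restricted to testis and to striated muscle, whereas Rpl23a and Rps27 are core ribosomal proteins of every cell. Ribosomal proteins have many near-identical processed copies in the genome, and probes cannot be assumed to tell them apart. The gene number behind the Rps4x probe set is now annotated as the pseudogene Rps4x-ps9, so its value may not be that of the functional gene. All 9 measured beta cell markers lay above the array median (Ins1 highest), and 0 of 8 leukocyte, 1 of 9 endothelial and stromal (Col1a1), 2 of 8 acinar and duct (Ctrb1 and Krt7) and 1 of 5 other islet cell markers (Gcg) did. The summed log2 signal of the leukocyte markers ran from 7.70 to 8.05 in control and from 7.71 to 8.00 in cytokine arrays, that of the beta cell markers from 15.38 to 15.72 and from 15.05 to 15.63, and that of the other islet cell markers from 9.43 to 10.19 and from 8.08 to 10.27. The acinar and duct sum ran from 9.55 to 10.08 and from 9.51 to 9.86, and the endothelial and stromal sum from 8.67 to 9.18 and from 8.69 to 9.03.

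The members varied little over the 40 arrays. The SD of the log2 signal over all arrays was 0.12 for Rpl5, 0.16 for Rplp0 and 0.11 for Rps6, the small-subunit protein phosphorylated by the S6 kinases. It was largest in the dim Rpl23a (0.66) and Rps27 (0.53), followed by Rpl10a (0.31). Across the 406 pairs of members, Pearson's r over the 40 arrays had a median of 0.30 and ran from -0.47 to 0.92, and 356 pairs were above 0. These arrays share their cultures, times and normalization, so the correlations describe the arrays and carry no test.

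**Figure D1:**
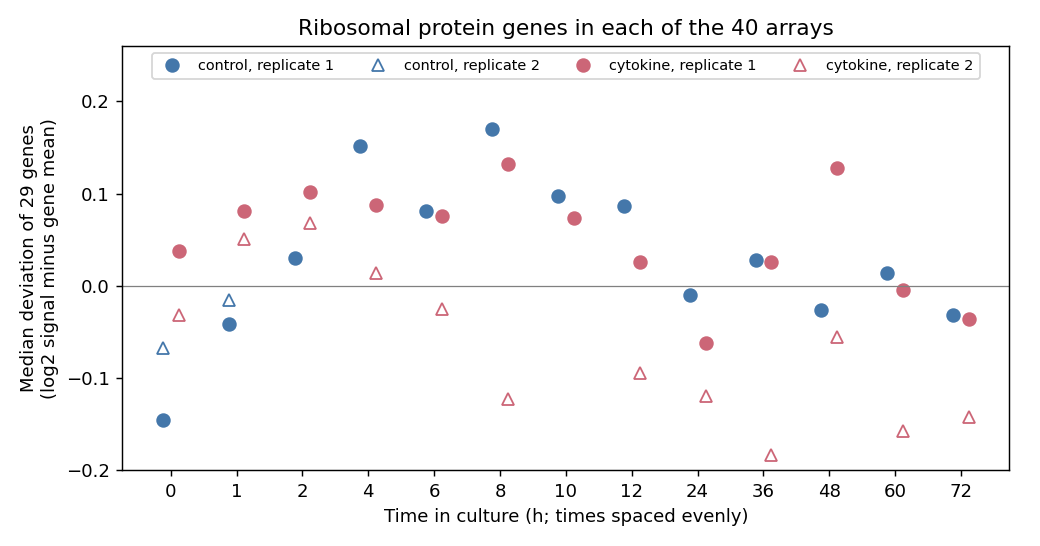
Ribosomal protein genes in each of the 40 arrays. The vertical axis gives the median over the 29 genes of the log2 signal minus the gene's mean over all arrays, the horizontal axis the time in culture in h, spaced evenly; circles are replicate 1, triangles replicate 2, blue control and red cytokine. The values run from -0.18 to 0.17, and at each time from 2 h on the triangles lie below the circle of the same colour.

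In cytokine-exposed cells, arrays numbered replicate 2 gave lower signals for this family than arrays numbered replicate 1. In control cells only 0 and 1 h have both numbers, and the median differences there were 0.04 and -0.03. In the 14 groups with both numbers, the median over the 29 members of replicate 2 minus replicate 1 was below 0 in 13 and ran from -0.20 to 0.04. Averaged over the groups, this difference had a median of -0.11 over the members and -0.02 over all genes. At 1 h the members were like all genes, with medians of -0.02 and -0.02 in cytokine-exposed and -0.03 and -0.04 in control cells. Rplp0, the protein that carries the stalk where elongation factors bind, differed by -0.27 on the log2 scale on average, Rps2, near the mRNA entry site, by -0.31, and Rps15, at the decoding end of the small subunit, by -0.26, each with replicate 2 lower in 14 of 14 groups. Rpl10a, part of the L1 stalk that moves with the outgoing tRNA, differed by -0.39, with 13 of 14 groups in that direction. Rpl41 averaged 0.00, with 8 of 14 groups below 0. The control arrays from 2 h on are all replicate 1, whereas cytokine-exposed cells had both numbers except at 10 h, so the arms differ in their mix of numbers. Values from replicate 1 alone are given beside the family's differences at 0 h and in the early, intermediate and late windows.

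**Figure D2:**
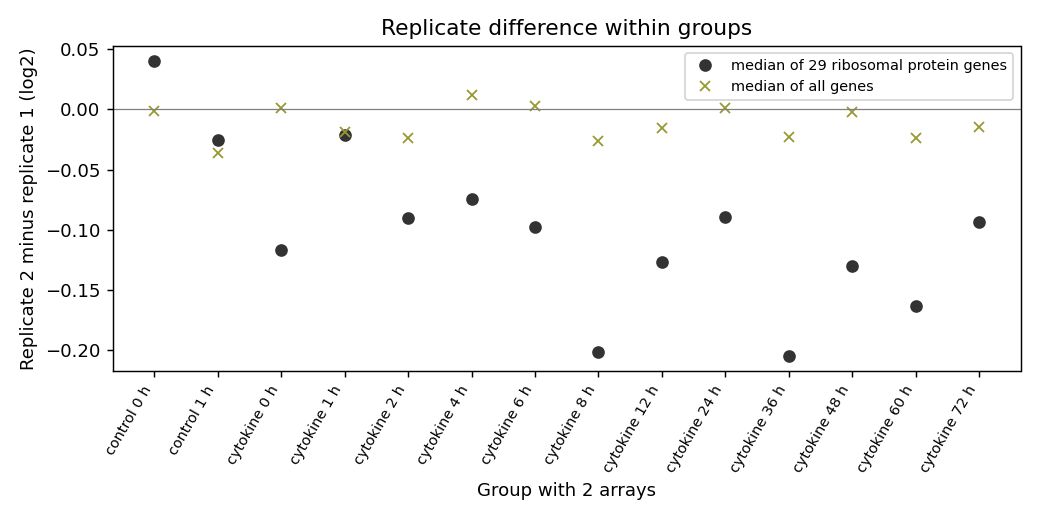
Replicate 2 minus replicate 1 (log2 signal) in the 14 groups that hold both arrays. Filled circles give the median over the 29 ribosomal protein genes and crosses the median over all genes; the circles run from -0.20 to 0.04 and lie below 0 in 13 groups.

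At 0 h, cytokine and control arrays gave no member that passed the test. The limma test called 0 of the 29 members, and 0 of the 16592 genes (0%), at an adjusted p under 0.05. At an unadjusted p under 0.05 it had 4 members, all higher in the cytokine arrays, and 556 of all genes. The 4 were Rpl30, Rpl10, Rps3 and Rpl11. These differences rested on 1 array: Rpl30 read 12.40 in control replicate 1, 13.45 in control replicate 2, and 13.42 and 13.52 in the cytokine arrays. Rpl10, which joins the large subunit late in its assembly, read 12.18 and 13.21 in the control and 13.15 and 13.25 in the cytokine arrays. Control replicate 1 at 0 h gave the lowest value of all 40 arrays for each of Rpl30, Rpl10, Rps3 (12.27) and Rpl11 (7.32), while the same array gave the highest for Rpl10a, 10.85 against 9.52 in replicate 2. The fitted differences were 0.54 for Rpl30 (SE 0.20; adjusted p = 0.999) and 0.51 for Rpl10. Without control replicate 1 they were 0.01 and 0.00, and without control replicate 2 they were 1.06 and 1.03. The family median at 0 h was 0.11, and 0.21 from replicate 1 arrays alone. It was 0.08 without control replicate 1, 0.16 without control replicate 2 and 0.03 without cytokine replicate 1.

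In the first hours of exposure the ribosomal protein mRNAs did not pass the test in either direction. Over 1, 2 and 4 h, 0 of 29 members were called by limma, where 247 of all genes (1.49%) were, 239 higher (1.44%) and 8 lower (0.0482%); 0 members had an unadjusted p under 0.05, and 1521 of all genes did. The median log2 difference of cytokine minus control was 0.02 over the members (0.04 from replicate 1 arrays alone) and -0.02 over all genes. The 95% interval lay within a 1.5-fold change either way for 26 of the 29 members and for 93.6% of all genes.

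Among the members in this window, Rps24, a small-subunit protein mutated in Diamond-Blackfan anaemia, had the largest difference. The 4 control arrays had a mean log2 signal of 11.00 ± 0.32 (SD) and the 6 cytokine arrays 11.38 ± 0.15, with overlapping values. The difference was 0.35 (SE 0.18; 95% interval -0.03 to 0.72; limma adjusted p = 0.598). Rps27, a zinc-finger protein of the small subunit whose probe set is dim, had 0.23 (SE 0.28), with control arrays from 5.08 to 7.27. On the other side, the muscle copy Rpl3l had -0.17 (SE 0.12; adjusted p = 0.708), Rpl10a -0.11 and Rps9 -0.10. Rplp0 differed by -0.07 (SE 0.13), Rps6 by 0.07 (SE 0.08) and Rpl5 by -0.06 (SE 0.10), each within its error.

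From 6 to 12 h the family leaned to lower signal in cytokine-exposed than in control cells. The amount was below what the test could call in any single gene. Limma called 0 of 29 members, where 1501 of all genes (9.05%) were called, 819 higher (4.94%) and 682 lower (4.11%); 1 member had an unadjusted p under 0.05, and 3255 of all genes did. The difference was below 0 in 26 of the 29 members, including all 10 of the small subunit, and in 59.9% of all genes. The median was -0.10 over the members and -0.03 over all genes. The lean was not particular to the family. In the related lists described below, 43 of 47 ribosome biogenesis factors (median -0.14) and 23 of 26 initiation factors (-0.07) were below 0. So were 51 of 67 mitochondrial ribosomal proteins (-0.08) and 8 of 12 elongation factors and other TOP mRNAs (-0.04). With replicate 1 arrays alone the members' median was -0.04. Members below 0 then numbered 16, 17, 17 and 22 of 29 at 6, 8, 10 and 12 h. Each of these times has 1 control array. The members' median deviation from their mean over all arrays was 0.08, 0.17, 0.10 and 0.09 in these control arrays, and -0.04 and -0.02 at 1 h. In cytokine replicate 1 it was 0.08, 0.13, 0.07 and 0.03, and 0.08 at 1 h. In cytokine replicate 2 it was -0.03, -0.12 and -0.09 at 6, 8 and 12 h, and 0.05 at 1 h.

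The member with the smallest p in this window was Rpl5, which with Rpl11 and the 5S RNA forms the particle that binds Mdm2 when ribosome assembly fails. Its control arrays at 6, 8, 10 and 12 h read 13.07, 13.06, 12.995 and 13.02, and its 7 cytokine arrays had a lowest value of 12.64, a median of 12.84 and a highest of 13.04. The groups overlapped only at the top, where cytokine replicate 1 at 6 h reached the control values. The difference was -0.20 (SE 0.09; 95% interval -0.39 to -0.01; limma adjusted p = 0.230), and Rpl5's partner Rpl11 differed by 0.01 (SE 0.10). The replicate 2 minus replicate 1 difference of Rpl5 averaged -0.18, with 13 of 14 groups below 0.

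Rpl10a had the largest difference of the window. Its control arrays read 10.17, 10.50, 10.04 and 10.07, and its cytokine arrays ran from 9.47 over a median of 9.78 to 10.32. The difference was -0.38 (SE 0.21; 95% interval -0.82 to 0.05; adjusted p = 0.342). It passed the threshold, at -0.39 with an adjusted p of 0.0491, in a limma fit restricted to the arrays of the window with additive terms for treatment and time, the lowest over the alternatives; the highest was 0.577. Rps2 differed by -0.24 (SE 0.14; adjusted p = 0.386), with control arrays from 12.68 to 12.90 and cytokine arrays from 12.21 to 13.005. The dim Rpl23a, which sits at the exit of the peptide tunnel, differed by -0.28 (SE 0.40). Rpl23 (0.02), Rpl11 (0.01) and Rpl10l (0.00) were the 3 members above 0. Rplp0 differed by -0.15 (SE 0.12), Rps3, at the mRNA entry channel, by -0.12 (SE 0.12), and Rps6 by -0.10 (SE 0.08).

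**Figure D3:**
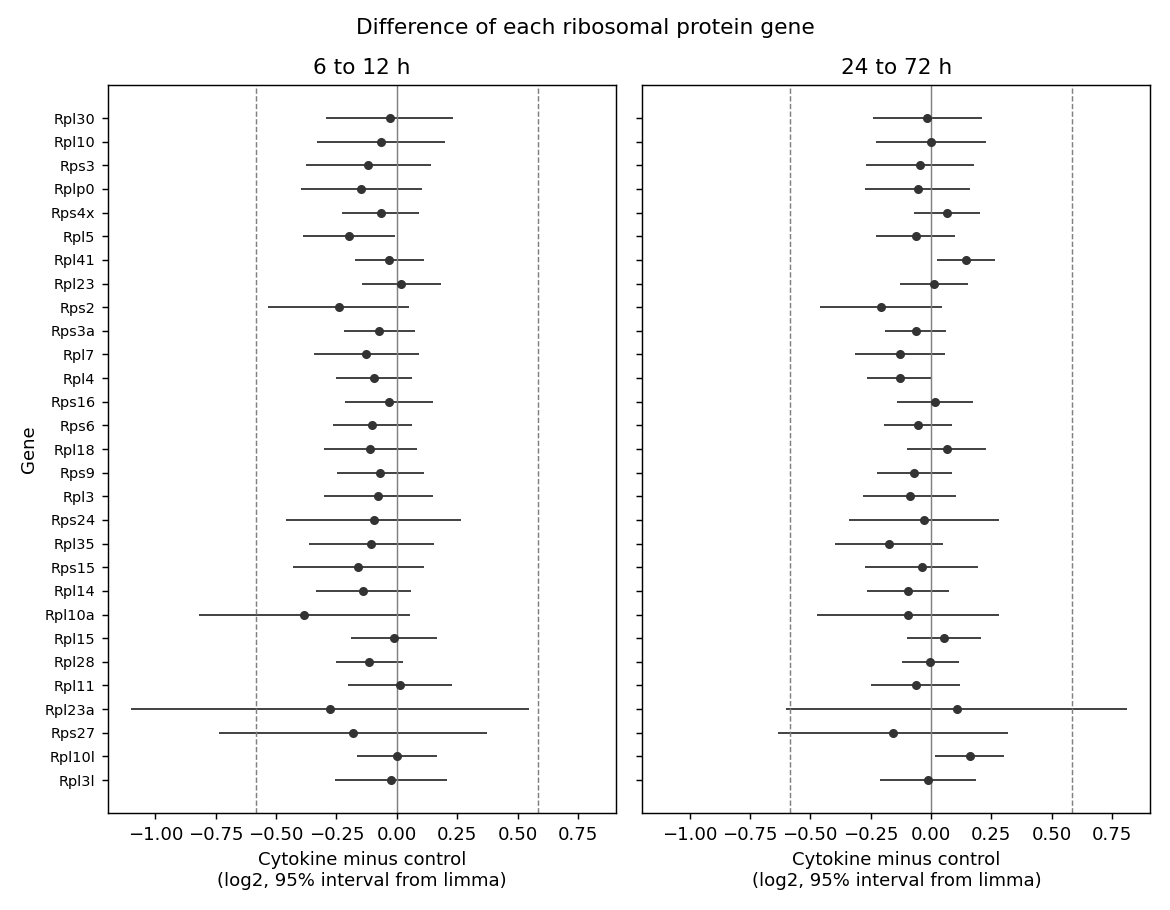
Cytokine minus control log2 difference of each ribosomal protein gene from 6 to 12 h (left) and from 24 to 72 h (right). Points are limma estimates from all 40 arrays, bars their 95% intervals, and dashed lines mark a 1.5-fold change either way; on the left 26 of the 29 points lie below 0 and 28 of the 29 intervals include 0, and on the right 27 intervals include 0.

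From 24 to 72 h the ribosomal protein mRNAs of exposed cells lay close to those of control cells. Limma called 0 of 29 members, where 1448 of all genes (8.73%) were called, 748 higher (4.51%) and 700 lower (4.22%); 2 members had an unadjusted p under 0.05, and 3388 of all genes did. The median was -0.04 over both the members and all genes, and 21 of the 29 members and 60.9% of all genes were below 0. With replicate 1 arrays alone the members' median was 0.03. The 95% interval lay within a 1.5-fold change for 27 of the 29 members and for 93.6% of all genes, so the members were like other genes in this. Rpl23a and Rps27 were outside it.

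Rpl41, the smallest ribosomal protein, had the smallest p. The control arrays at 24, 36, 48, 60 and 72 h read 12.73, 12.81, 12.70, 12.72 and 12.47, and the 10 cytokine arrays ran from 12.70 over a median of 12.85 to 12.94. The groups overlapped between 12.70 and 12.81, and the 72 h control array was below all others. The difference was 0.14 (SE 0.06; 95% interval 0.02 to 0.27; limma adjusted p = 0.148, and 0.567 without the 72 h control array). Rpl10l had 0.16 (SE 0.07; adjusted p = 0.176), at a signal in the lower part of the arrays. On the other side, Rps2 had -0.21 (SE 0.12; 95% interval -0.46 to 0.04; adjusted p = 0.359), with control arrays from 12.39 to 12.75 and cytokine arrays from 11.96 to 12.67. Rpl35, at the rim of the tunnel exit, had -0.17 (SE 0.11; adjusted p = 0.393). In Rps2 and Rpl35 the replicate offset has the same sign: replicate 2 averaged -0.31 and -0.24 against replicate 1.

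The members long used as reference genes or studied as sensors of ribosome stress were close to 0 in this window. Rplp0 had 12.95 ± 0.06 (SD, n = 5) in control and 12.89 ± 0.17 (SD, n = 10) in cytokine arrays, a difference of -0.06 (95% interval -0.27 to 0.16). Rpl5 differed by -0.06 (95% interval -0.23 to 0.10) and Rpl11 by -0.06 (95% interval -0.25 to 0.12). Rps6 differed by -0.05 (95% interval -0.19 to 0.09), Rps3 by -0.04 (SE 0.11) and Rpl3, next to the peptidyl transferase centre, by -0.09 (SE 0.09). Rpl30 differed by -0.02, Rpl10 by 0.00 and Rps4x by 0.07, with standard errors of 0.11, 0.11 and 0.07. Over the same arrays the beta cell markers did separate: limma called 6 of 9 lower in the late window, among them Ins2 at -0.64 (SE 0.07) and Pcsk1, which processes proinsulin, at -1.18 (SE 0.14). Among markers of other cell types, Gcg was called at -2.80 (SE 0.14), Ctrb1 at -0.76 (SE 0.07) and Krt7 at 0.45 (SE 0.06); their part in the members' values was not tested. In bulk arrays, fewer cells of a type and less RNA per cell cannot be told apart.

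**Figure D4:**
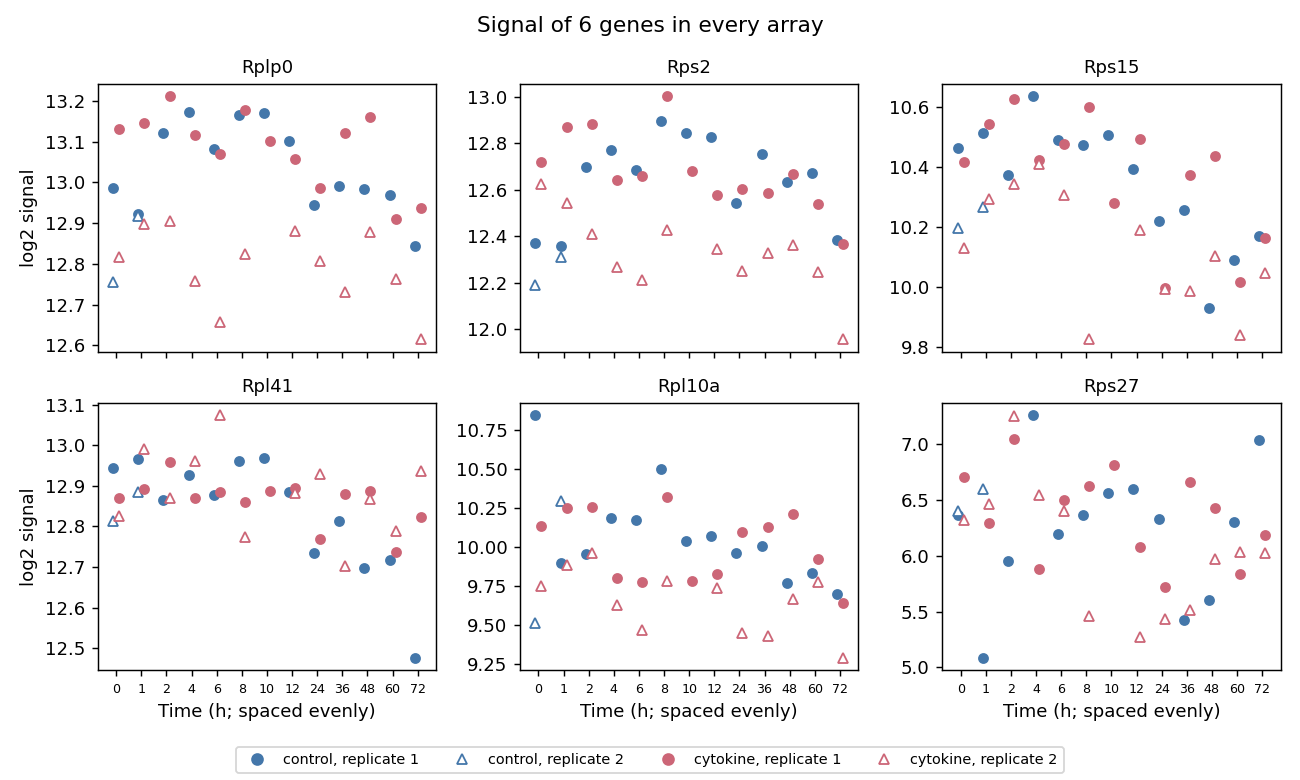
Log2 signal of Rplp0, Rps2, Rps15, Rpl41, Rpl10a and Rps27 in each array by time, 1 panel per gene with its own axis. Blue is control and red cytokine, circles replicate 1 and triangles replicate 2; in the panels of Rplp0 and Rps2 each triangle lies below the circle of its group, and Rps27 scatters over more than 2 units.

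The late and early differences were also compared directly. For late minus early, limma called 0 of 29 members, where 218 of all genes (1.31%) were called, 0.651% higher and 0.663% lower; 0 members and 1737 of all genes had an unadjusted p under 0.05. The median was -0.06 over the members and -0.01 over all genes, and the members' value was 0.00 without control 2 h replicate 1 and -0.13 without control 4 h replicate 1. Rpl4, which lines the peptide tunnel and is named here after its values were seen, had the smallest adjusted p, 0.505, at -0.20 (SE 0.10). Rps27 (-0.39, SE 0.36) and Rps24 (-0.37, SE 0.23) had the largest differences and Rpl3l (0.16, SE 0.15) the highest.

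At single times the family median lay between -0.17 and 0.11, above 0 at 4 times (0, 1, 2 and 48 h) and below 0 at the other 9. The first 3 times, 0, 1 and 2 h, gave medians of 0.11, 0.10 and 0.07, and the next 5, from 4 to 12 h, gave -0.09, -0.08, -0.17, -0.05 and -0.10. The late times gave -0.05, -0.12, 0.07, -0.06 and -0.05 from 24 to 72 h. Members below 0 numbered 26 of 29 at 8 h, where 55.4% of all genes were below 0, and 5 of 29 at 48 h, where 53.6% were. Replicate 1 arrays alone gave 17 and 1 of 29 at these 2 times. With replicate 1 arrays alone the medians at 8, 36, 48 and 72 h were -0.03, 0.01, 0.14 and 0.01, so the lowest values at 8 and 36 h were smaller without the replicate 2 arrays. Single differences beyond 1 unit came from dim probe sets: Rps27 had 1.200 at 2 h and -1.05 at 4 h, and Rpl23a 1.18 at 10 h. Each of these times but 0 and 1 h has 1 control array, which enters the values of all members at that time.

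**Figure D5:**
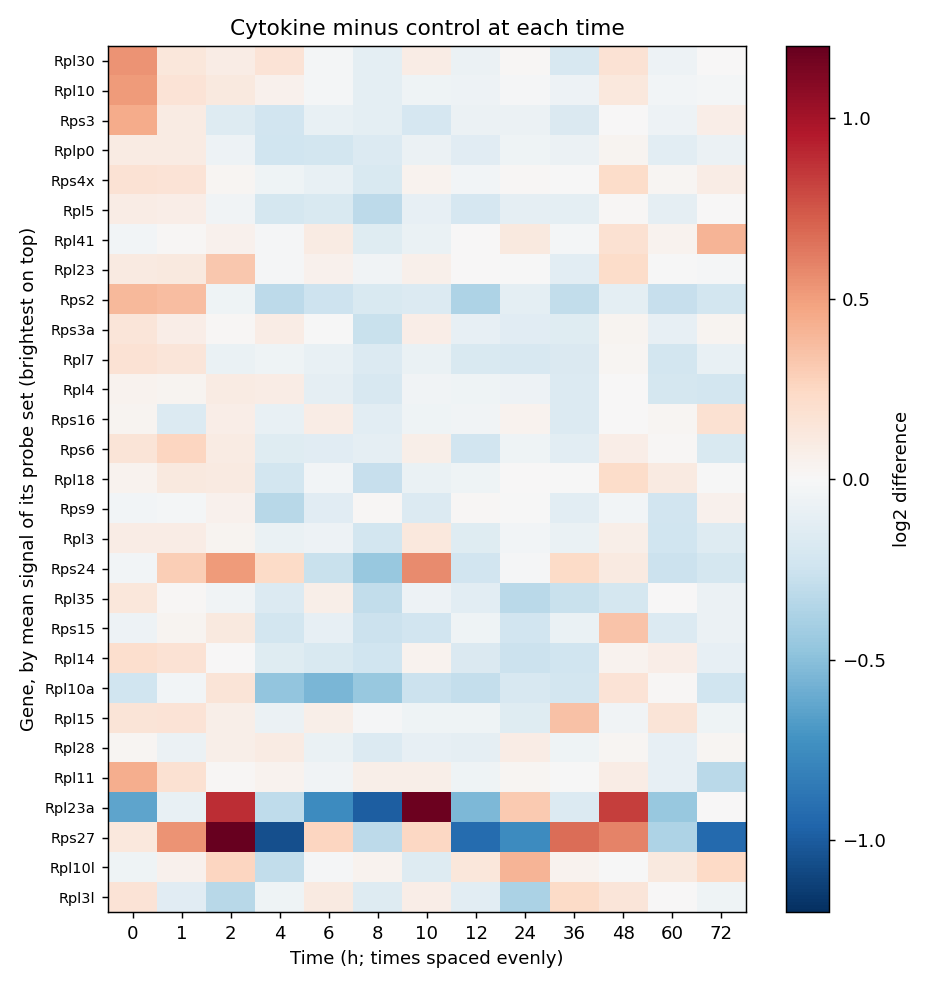
Cytokine minus control log2 difference of the 29 ribosomal protein genes at each of the 13 times. Rows are genes, columns times in h, and colour gives the difference, red higher and blue lower in cytokine-exposed cells; the strongest colours are in Rps27 and Rpl23a.

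The genes outside the family whose 13 differences followed the family median most closely were Tsta3 (Pearson's r = 0.94), Psmd13 (0.93), Atp5f1 (0.93), Kpna6 (0.93) and Mecr (0.92). Within the family, Rpl5 (0.90), Rps4x (0.85), Rps6 (0.84) and Rpl10 (0.82) followed it most closely. Rpl41 (0.21), Rpl10l (0.07) and Rpl3l (0.00) did not. The 13 points share control arrays and replicate numbers, and the members enter the median they are compared with.

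Signals of the family were slightly lower at 24 to 72 h than at 1 to 12 h in both arms. In the exposed cells 2 members passed the test. In the cytokine arrays, the 24 to 72 h times were compared with the 1 to 12 h times. Limma called 2 of 29 members, both lower, where 3361 of all genes (20.3%) were called, 1483 higher (8.94%) and 1878 lower (11.3%). The members' share is below the background of this comparison. Unadjusted p-values under 0.05 were found for 6 members, all lower, and for 5020 of all genes. The median was -0.09 over the members, with 24 of 29 below 0, and 0.00 over all genes, of which 48.9% were below 0.

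The 2 called members were Rps15 and Rpl4. Rps15 ran from 9.82 over a median of 10.41 to 10.63 in the 13 earlier cytokine arrays and from 9.84 over 10.03 to 10.44 in the 10 late ones. Most late arrays were below most earlier ones, but the ranges overlapped. Rps15 fell by 0.27 on the log2 scale (difference -0.27, SE 0.09; 95% interval -0.45 to -0.09; limma adjusted p = 0.0328). Rpl4 had 12.41 ± 0.10 (SD, n = 13) in the earlier and 12.25 ± 0.11 (SD, n = 10) in the late arrays, a fall of 0.15 (difference -0.15, SE 0.05; limma adjusted p = 0.0353). Both calls lie near the threshold: leaving out single cytokine arrays gave 0 to 4 called members. The count was 0 without 2 or 12 h replicate 1, either 24 h array, or replicate 2 at 36, 48, 60 or 72 h, 1 without either 1 h or 6 h array, 4 h replicate 2 or 8 h replicate 1, and 4 without 8 h replicate 2. Quantile normalization gave 0. Rps27 (-0.41, SE 0.18; adjusted p = 0.122), Rpl23a (-0.42, SE 0.26), Rpl3 (-0.19, SE 0.07; adjusted p = 0.0781) and Rps2 (-0.19, SE 0.09) did not pass. Rpl10 (0.04), Rps4x (0.03) and Rpl3l (0.03) were highest.

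In control cells the same comparison gave a like median. Limma called 0 of 29 members, where 199 of all genes (1.2%) were called, 65 higher (0.392%) and 134 lower (0.808%); 3 members, all lower, and 2498 of all genes had an unadjusted p under 0.05. The median was -0.10 over the members, with 27 of 29 below 0, and 0.01 over all genes, of which 46.8% were below 0. Rpl41 ran from 12.86 over a median of 12.91 to 12.97 in the 8 control arrays of 1 to 12 h, above each of the 5 late arrays given above. Its difference was -0.23 (SE 0.06; 95% interval -0.36 to -0.10; limma adjusted p = 0.0720), and it passed at 0.0419 when the dimmest genes were left out (11061 genes kept). Its adjusted p over the alternatives ran from 0.0225 to 0.300, the highest without control 72 h replicate 1. Rps15 ran from 10.27 to 10.64 in the earlier arrays and read 10.22, 10.26, 9.93, 10.09 and 10.17 in the late ones. Its groups did not overlap, and the difference was -0.33 (SE 0.12; adjusted p = 0.176), as large as the one called in the exposed cells. Rpl10a had -0.29 (SE 0.19) and Rpl23a -0.61 (SE 0.36). Rpl10 (0.05), Rps24 (0.04) and Rpl30 (-0.01) were highest. With 7 earlier and 5 late control times, this comparison had 13 arrays against 23 in the exposed cells. The difference between the arms' changes over these windows was not tested.

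Related gene lists held single genes that passed the test, named here as genes and not as a result about their list. Among 22 measured genes of the mTOR pathway and of TOP mRNA control, limma called 4 lower and 0 higher from 6 to 12 h, where 4.11% and 4.94% of all genes were called lower and higher. Eef2k, the kinase that inhibits elongation factor 2, was at -0.76 (SE 0.09), Sesn1 and Sesn3, sestrins that restrain mTORC1, at -0.38 (SE 0.07) and -0.39 (SE 0.09), and Depdc6, the mTOR inhibitor also known as Deptor, at -0.27 (SE 0.07). From 24 to 72 h, where 4.51% of all genes were called higher and 4.22% lower, 3 rose and 2 fell: the Rag GTPases Rragd and Rragc, which bring mTORC1 to the lysosome, rose by 0.70 (SE 0.10) and 0.46 (SE 0.08), and Sesn1 and Sesn3 were at -0.38 (SE 0.06) and -0.43 (SE 0.08). The list's median was -0.09 from 6 to 12 h and -0.01 from 24 to 72 h. Of 5 eIF2α kinases and phosphatase subunits, Ppp1r15a (Gadd34), which targets the phosphatase to eIF2α, was called higher in the early, intermediate and late windows, by 0.52 (SE 0.11) and 0.45 (SE 0.10) in the last 2.

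The lists nearest to the ribosome itself had few calls between cytokine and control arrays. From 6 to 12 h these are to be read against 4.94% of all genes called higher and 4.11% called lower. From 24 to 72 h the shares of all genes were 4.51% and 4.22%. Of 12 elongation factors and other TOP mRNAs, 0 were called in the early, intermediate or late window by limma, with medians of 0.03, -0.04 and 0.02, and 0, 3 and 2 had an unadjusted p under 0.05. Of 26 initiation factors, Eif1ay (0.40, SE 0.10) was called higher and Eif2b1 (-0.24, SE 0.07) lower from 6 to 12 h, and 0 were called later, where 0 had an unadjusted p under 0.05. Of 47 ribosome biogenesis factors, 3 were called lower from 6 to 12 h, namely Ltv1 (-0.26, SE 0.07), an export factor of the small subunit, Polr1b (-0.30, SE 0.08), a subunit of RNA polymerase I, and Mdn1 (-0.27, SE 0.08), an assembly ATPase of the large subunit. From 24 to 72 h only Ltv1 was, at -0.27 (SE 0.06). Of 67 mitochondrial ribosomal proteins, which build the separate ribosome of that organelle, Mrps11 (-0.41, SE 0.10) and Mrpl34 (-0.29, SE 0.08) were called lower from 6 to 12 h. Between 24 and 72 h Mrps34 (0.46, SE 0.12), Mrpl36 (0.26, SE 0.07) and Mrps18b (0.22, SE 0.07) were called higher and Mrps25 (-0.26, SE 0.07) lower. Over time in the cytokine arrays, 25 of the 67 mitochondrial members were called lower and 1 higher, with a median of -0.15, where 11.3% of all genes were called lower and 8.94% higher; the cytosolic ribosomal proteins had 2 of 29 lower and a median of -0.09. In the control arrays over time the mitochondrial list had a like median, -0.15, with 63 of 67 below 0. There limma called 4 lower and 0 higher, where 0.808% of all genes were called lower. Over time in the cytokine arrays, 14 of 47 biogenesis factors were called lower and 2 higher (median -0.10). So were 6 and 1 of 26 initiation factors (-0.10), and 1 and 0 of 12 elongation factors and other TOP mRNAs (-0.09). In the control arrays these medians were -0.16, -0.12 and -0.10, with 1, 1 and 0 called lower and 0 higher. The mTOR list had medians of 0.04 in cytokine and -0.02 in control arrays. Both measured ribosomal proteins under other symbols, Rpsa and Fau, were called lower over time in the cytokine arrays, with a median of -0.28. In the control arrays their median was -0.31, with 0 called and 2 at an unadjusted p under 0.05. Of 7 symbols that resemble the family but lie outside the rule (such as Rpl7l1 and Rpl22l2), 0 were called in the early, intermediate or late window, with 0, 3 and 1 at an unadjusted p under 0.05.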

How the data were processed

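The authors deposited 1 log2 signal for each probe set in each array, and these were used unaltered. The scale was read from the values (2.27 to 14.46); how the authors corrected background and normalized is not given in the sources used here. Medians of the arrays lay between 6.54 and 6.62, and precision is limited by how few arrays there are. The platform annotation gave a single gene symbol to 16592 of 19239 probe sets and left 2647 unnamed. Of the 29 members, 28 gene numbers (Rps9 excepted) were found in the RefSeq table of GRCr8, 26 with the same symbol.

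The test was limma (version 3.58.1, R 4.3.3; lmFit, then eBayes) on all 40 arrays, with 1 coefficient for each of 26 groups of treatment and time (14 with 2 arrays, 12 with 1), leaving 14 residual degrees of freedom with 6.06 from the prior. A lone array was assumed to vary like the pairs. Windows average their times equally, and p-values were adjusted over the 16592 symbols by Benjamini-Hochberg with a threshold of 0.05. An SD of a level spans the arrays of its window and so includes change between times. The design text speaks of 2 occasions, but no label ties replicates to an occasion or to separate cultures, so the p-values reflect only array-to-array spread, possibly technical. A simulation of 16592 genes used noise independent between genes and arrays, and a sample of the genes was given a late difference. Limma called 89% of those set to a log2 change of 0.5 and 100% at 1. No offset shared by replicates or genes was simulated, and no change as small as the family medians, so these shares do not apply to them.

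Genes named are a fixed set of well-known members, the 3 largest differences in each direction per comparison, the 3 brightest, dimmest and most variable members, of each other list up to 4 genes with the smallest p in the intermediate and in the late window, and the 5 genes most like the family median. The members and lists were chosen with earlier results of these data known. The alternatives tried are in the closing section.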

Additional observations from a re-analysis of the deposited data

How the results depend on the processing

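The replicate numbers were not tied by the labels to the 2 occasions, and they do not meet the rule for pairs. The replicate 2 minus replicate 1 differences of 14 groups correlated from -0.17 to 0.43 across genes (91 correlations, median 0.21, 68 over 0.1). Each group's mean correlation with the other groups was above 0, from 0.02 (cytokine 4 h) to 0.25 (cytokine 1 h), a hint from the data. With the replicate block, called members went from 0 to 1 in the late window (Rpl10l), where 10.7% of all genes were called (8.73% without the block). In control late minus 1-12 h they went from 0 to 2 (Rpl41, adjusted p = 0.0305, and Rps15, adjusted p = 0.0136, by limma), where 5.07% of all genes were called (1.2% without). In cytokine late minus 1-12 h they went from 2 to 4, where 24% of all genes were called (20.3% without). They stayed at 0 elsewhere. Other settings that moved a count were quantile normalization (0 in cytokine late minus 1-12 h), leaving out the dimmest genes and trend with robust moderation (1 each in control late minus 1-12 h), the additive fit (1 in the intermediate window) and a wider family of 38 symbols (1 in control and 7 in cytokine late minus 1-12 h). Leaving out each array in turn gave 0 to 4 called members in cytokine late minus 1-12 h. At 0 h, leaving out an array of that time leaves 1 in its group, so no count is given there. In the other comparisons the count was 0. The share of all genes called is not given for these fits, so their counts are no result about the family. Centring on array medians and array weights moved no count past 1.5 times, nor did leaving out the 4 dim members or Rps4x, 2 memberships chosen after seeing the data.

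The median difference over the members stayed within 0.11 of its main value under each setting. This bound is the SD between replicate arrays of the members' median signal in an array. It is a yardstick only, since it does not measure the spread of a median difference. None of the main median differences was larger than this bound, so one that moved to 0 would still count as within it. The sign of the median was not stable: in the late window it ran from -0.05 to 0.03 over the settings (0.01 with the block). Replicate 1 alone gives no test at 0 h, and averaging probe sets was not run because 0 symbols had several.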
